A study of Sus scrofa domesticus with 2 samples.

Results

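The genes described here were 9 markers of mural cells and genes of platelet-derived growth factor (PDGF) signalling: the ligand genes PDGFA and PDGFB, the receptor genes PDGFRA and PDGFRB, and CSPG4, NOTCH3, KCNJ8, ABCC9 and RGS5. They were chosen by name, and all 9 were found among the 22804 genes counted. The samples were 2 single-cell RNA-seq (scRNA-seq) libraries from the domestic pig, 1 of cultured aorta ECs and 1 of cultured lung ECs (ECs, endothelial cells). Cells were washed out of the aorta or of 1 lung lobe with collagenase and grown in the same DMEM medium with 10% fetal calf serum, in a study that looked for endothelial to mesenchymal transition in culture. Both were primary, unsorted cultures. The study describes its tissues as coming from pigs of adult age. For its scRNA-seq tissues it names slaughterhouse pigs, a hybrid of Landrace, Large White and Duroc, and states their age in months. It gives no separate age or number of animals for these cultures in the sources used here. With 1 library per tissue there was no replicate, so no test was run and every interval below covers counting error only.

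Mural cells are the pericytes and smooth muscle cells that wrap vessels. In the developing vessel wall, ECs release PDGF-BB, the dimer of the PDGFB product, and mural cells are drawn to them through its receptor PDGFRβ. PDGF-AA, the dimer of the PDGFA product, acts through PDGFRα, which is best known from fibroblasts and other mesenchymal cells. CSPG4 encodes NG2, a proteoglycan on the surface of pericytes and immature mesenchymal cells. NOTCH3 is a Notch receptor of arterial smooth muscle cells and pericytes, RGS5 is a regulator of G protein signalling known from pericytes, and KCNJ8 and ABCC9 encode the pore and the regulatory subunit of a potassium channel that ATP closes.

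Cells were put in classes by genes outside the 9. A cell with 20 or more unique molecular identifiers (UMIs, 1 per captured transcript) of COL1A1 and COL1A2, the genes of the chains of type I collagen, was called collagen-high if it held fewer than 5 UMIs of PECAM1 and CDH5, genes of junction proteins of ECs, and mixed if it held 5 or more. A cell with 5 or more UMIs of PECAM1 and CDH5 and less collagen was called endothelial. The aorta library held 141 collagen-high, 18 mixed and 653 endothelial cells among 955 cells kept, and the lung library held 302, 41 and 5133 among 5709. The aorta cells were far deeper, with a median of 60444 UMIs per collagen-high and 54202 per endothelial cell, against 10495.5 and 9532 in the lung. Endothelial genes that were not used for the classes followed them. All 10 at 10 CPM (UMIs of the gene per 1000000 UMIs) or more in the aorta and all 9 in the lung were at least 2-fold higher in endothelial cells, and the summed level of the 11 found was 62.4 CPM in collagen-high against 1649 CPM in endothelial cells of the aorta and 78.9 against 1560 CPM in the lung. A set of 7 immune markers summed to at most 3.69 CPM and 5 epithelial markers to at most 1.23 CPM in these 2 classes of either library.

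PDGFRB and CSPG4 marked collagen-high cells in both libraries, PDGFB marked ECs in both, and PDGFA was found in both classes. The other 5 genes stayed under 10 CPM in either class of both libraries. A gene was counted as higher in a class at 2-fold or more with at least 10 CPM there. In the aorta, 3 of the 9 genes were higher in collagen-high cells, where 8.09% of the 8124 genes at 10 CPM or more were, and 1 was higher in endothelial cells, where 13.2% were. In the lung these were 2 of 9 against 7.82% of 8018 genes, and 1 of 9 against 11.2%. The median log2 ratio of collagen-high to endothelial cells over all these genes was 0.015 in the aorta and -0.0037 in the lung, so the ratios below needed no centring.

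**Figure D1:**
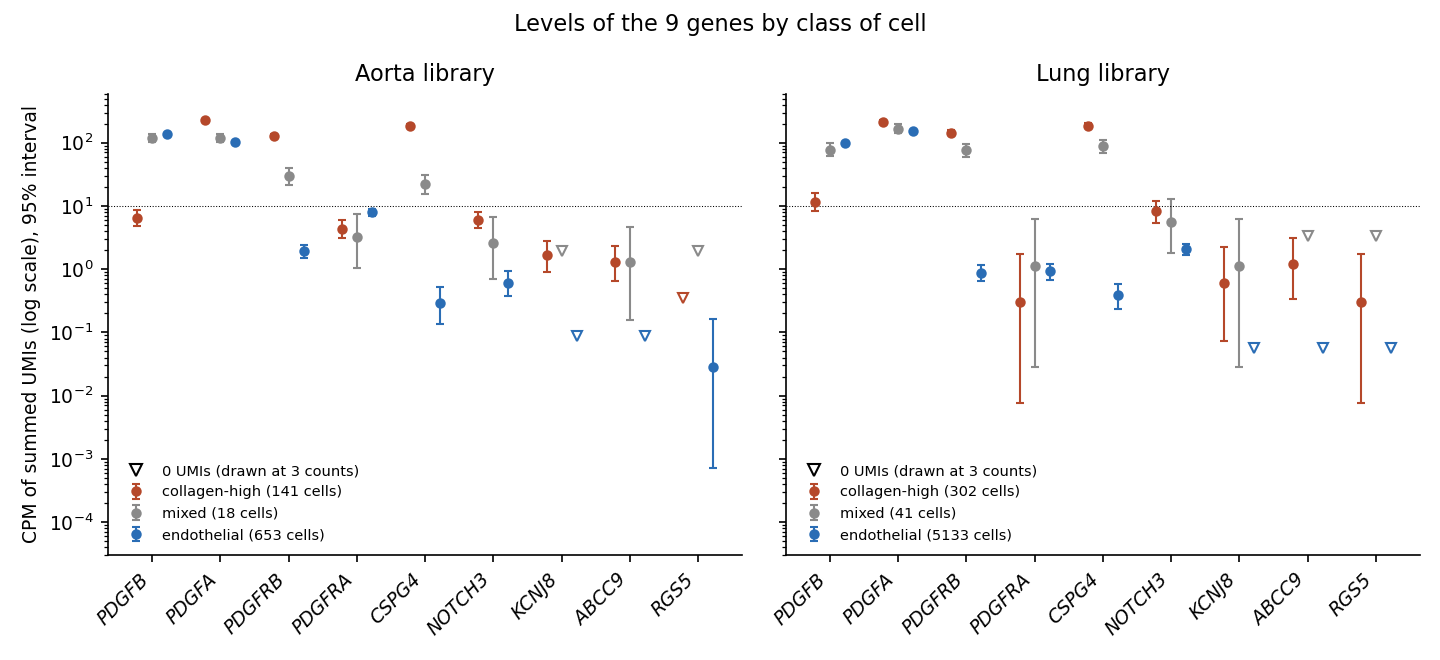
Level of each of the 9 genes in collagen-high, mixed and endothelial cells of the aorta and lung libraries. The vertical axis is CPM of UMIs summed over the cells of a class on a log scale, bars are exact Poisson 95% intervals, open triangles mark classes with 0 UMIs at the level of 3 counts, and the dotted line is at 10 CPM. PDGFRB and CSPG4 sit between 129 and 187 CPM in collagen-high cells and under 2 CPM in endothelial cells of both libraries, and PDGFB has the opposite order.

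The sequences before the starts of PDGFRB and CSPG4 are given because, of the 9 genes at 10 CPM or more, they had the widest differences between the classes in both libraries. In the RefSeq annotation of Sscrofa11.1, the build of the counts, PDGFRB (ENSSSCG00000022741) lies on the reverse strand of chromosome 2 from 151155753 to 151192818 and CSPG4 (ENSSSCG00000001873) on the forward strand of chromosome 7 from 57949182 to 57988602. The 250 bases upstream of each are written on the strand of the gene, 5′ to 3′, from chr2:151192819-151193068 (reverse strand) and chr7:57948932-57949181 (forward strand), with matches to any of 3 promoter motifs in capitals. These were TATAAA for the TATA box, the letters CCAAT for the box of that name and the Sp1 motif GGGCGG, each searched on both strands.
PDGFRB: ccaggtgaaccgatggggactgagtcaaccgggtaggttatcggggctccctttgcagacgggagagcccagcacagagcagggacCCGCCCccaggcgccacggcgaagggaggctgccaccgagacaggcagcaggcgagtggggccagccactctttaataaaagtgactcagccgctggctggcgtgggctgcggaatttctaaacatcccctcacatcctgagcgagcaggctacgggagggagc
CSPG4: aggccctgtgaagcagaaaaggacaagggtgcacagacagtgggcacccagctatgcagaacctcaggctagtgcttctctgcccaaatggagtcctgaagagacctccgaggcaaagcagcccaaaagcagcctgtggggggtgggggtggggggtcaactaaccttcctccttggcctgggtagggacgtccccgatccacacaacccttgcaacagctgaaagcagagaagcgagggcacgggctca
The PDGFRB sequence held 1 match to the Sp1 motif, on the other strand, and none to the rest, and the CSPG4 sequence held no match to any of the 3. Of the 19556 protein-coding genes with a complete sequence of this length, 45.9% held the Sp1 motif, 31.9% the CCAAT box and 9.77% the TATA box on either strand. The G and C content was 64.0% before PDGFRB and 59.6% before CSPG4, with a median of 57.6% over those genes. The start of a RefSeq gene need not be the start that these cells use.

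PDGFB (ENSSSCG00000033327), the ligand gene of the pair that recruits mural cells, was a gene of the endothelial class. In the aorta its level was 139 CPM (95% interval 135–143, 4827 UMIs) in endothelial cells and 6.51 CPM (4.90–8.47, 55 UMIs) in collagen-high cells, 21.4-fold lower (16.4–28.4). In the lung it was 98.2 CPM (95.6–101, 5115 UMIs) in endothelial and 11.7 CPM (8.26–16.0, 38 UMIs) in collagen-high cells, 8.42-fold lower (6.12–11.9). The intervals of the classes were far apart in both libraries, and the aorta ECs held the higher level, with a lung to aorta ratio of 0.71 (0.68–0.74). The level in ECs also varied with depth within each library. It was 122 CPM in lung ECs with 20000 or more UMIs against 97.0 CPM in the others, and 138 against 180 CPM in the aorta. When mixed cells were counted as collagen-high, the excess in ECs was 5.81-fold in the aorta and 3.78-fold in the lung. The limit of 5 UMIs of PECAM1 and CDH5 was not scaled to depth. Collagen-high cells held PECAM1 at 13.1 CPM in the aorta and 35.6 CPM in the lung, and the part of this in the 2 ratios was not tested.

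PDGFB transcripts were spread over the ECs and not held by a few of them. At full depth 95.1% of the aorta ECs had at least 1 UMI, with a median of 6 per cell and a highest count of 51, and 59.1% of the lung ECs did, with a median of 1 and a highest count of 9. The libraries differ in depth, so each cell was also thinned to 5000 UMIs, which left out 6 aorta and 213 lung ECs. The share with a PDGFB UMI was then 48.8% (exact binomial 95% interval 44.9–52.8) in the aorta and 37.6% (36.3–39.01) in the lung, and among collagen-high cells it was 2.96% and 6.01%. Dividing cells, those with 2 or more UMIs of the topoisomerase gene TOP2A, held almost as much PDGFB as cells with none, at 132 against 146 CPM in the aorta and 98.0 against 99.3 CPM in the lung.

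The small amount of PDGFB in collagen-high cells can be set beside transcripts that such cells should lack. It came to 4.68% of the endothelial level in the aorta and 11.9% in the lung. For the endothelial genes that were not used to class cells, the same share had a median of 0.814% over 10 genes in the aorta and 4.29% over 9 genes in the lung, with ERG, a transcription factor of ECs, highest at 31.2% and 17.6%. The others reached at most 2.67% and 8.69%, both for TEK, another of these endothelial genes. By these values PDGFB lay above every one of the genes but ERG in both libraries. Its intervals, 3.52–6.10% and 8.40–16.3%, overlapped those of TEK, 0.87–6.27% and 2.82–20.4%, and of some other genes. The order was thus not settled for each gene. The part that free RNA or joined cells have in the PDGFB of collagen-high cells was not tested.

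PDGFA (ENSSSCG00000007541), the ligand gene of PDGFRα, was found in both classes and was higher in collagen-high cells. It lies on the reverse strand of chromosome 3 from 296399 to 322967. In the aorta its level was 226 CPM (216–237, 1911 UMIs) in collagen-high and 104 CPM (100–107, 3604 UMIs) in endothelial cells, a ratio of 2.18 (2.06–2.30). In the lung it was 210 CPM (195–227, 685 UMIs) against 154 CPM (151–157, 8015 UMIs), a ratio of 1.37 (1.26–1.48) that did not reach 2-fold. The difference between the libraries lay in the ECs, where the lung to aorta ratio was 1.48 (1.43–1.54), while in collagen-high cells it was 0.93 with an interval of 0.85–1.02 that includes equal levels.

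Many ECs held both ligand genes. Among aorta ECs 534 of 653 had UMIs of PDGFA and PDGFB, and 13 had PDGFA alone. Among lung ECs, which are shallower, 2216 of 5133 had both, 1383 PDGFA alone, 819 PDGFB alone and 715 neither. PDGFB was seen in 61.6% of lung ECs with PDGFA and in 53.4% of those without, and the former were also somewhat deeper, with a median of 9895 UMIs against 8727.5. After thinning, PDGFA was seen in 66.7% of aorta and 66.1% of lung collagen-high cells, against 34.6% and 49.7% of the ECs.

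**Figure D2:**
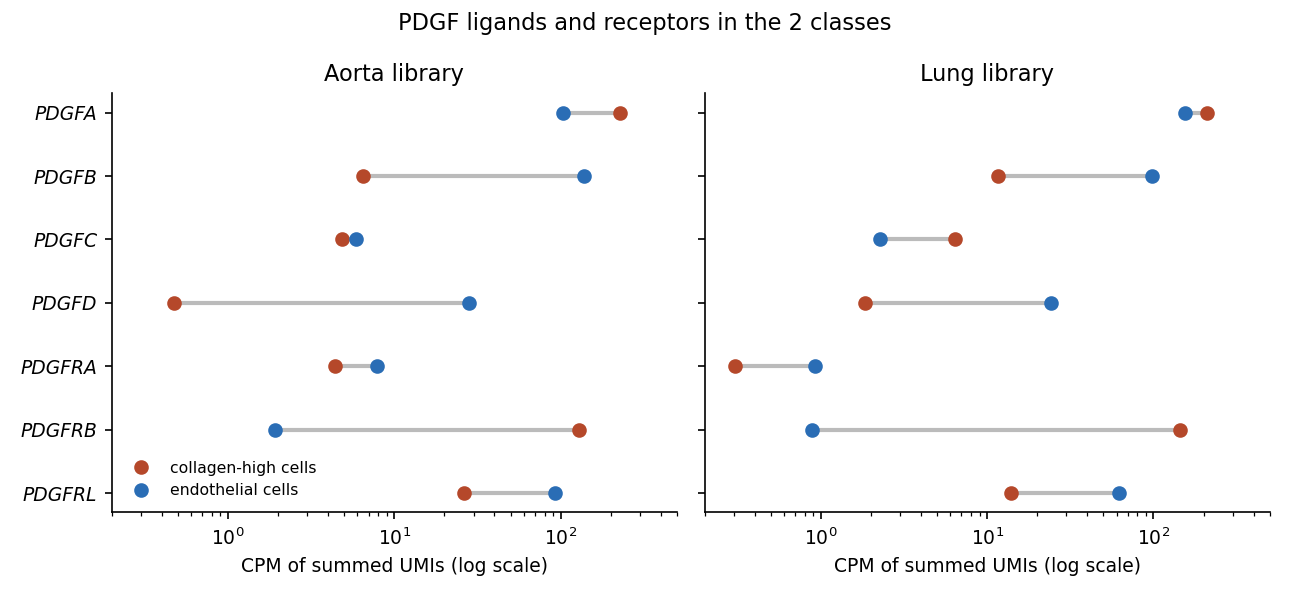
Levels of the 4 PDGF ligand genes, the 2 receptor genes and PDGFRL in collagen-high (red) and endothelial (blue) cells of each library, as CPM of summed UMIs on a log axis, with a line joining the 2 classes. PDGFB, PDGFD and PDGFRL are higher in endothelial cells and PDGFRB in collagen-high cells of both libraries, while PDGFC is under 10 CPM in each class.

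Of the remaining ligand genes, PDGFD was higher in ECs of both libraries, while PDGFC was not ordered alike in them. PDGFD, whose product also acts on PDGFRβ, reached 28.1 CPM in aorta ECs against 0.47 CPM in collagen-high cells, and 24.4 against 1.84 CPM in the lung, so it was 59.4-fold and 13.2-fold higher in ECs. PDGFC, a ligand of PDGFRα, had 41 UMIs in collagen-high and 205 in endothelial cells of the aorta, or 4.85 and 5.90 CPM, a ratio of 0.82 (0.57–1.15). In the lung it was at 6.45 and 2.27 CPM, a ratio of 2.85 (1.70–4.55). PDGFRL, which codes for a secreted protein resembling the outer part of a PDGF receptor, was 3.51-fold higher in ECs of the aorta, at 92.5 against 26.4 CPM, and 4.47-fold higher in those of the lung, at 61.8 against 13.8 CPM.

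PDGFRB, the receptor gene for PDGF-BB, was a gene of the collagen-high class. Its level in the aorta was 129 CPM (122–137, 1094 UMIs) in collagen-high and 1.93 CPM (1.495–2.45, 67 UMIs) in endothelial cells, a ratio of 67.1 (52.4–87.2). In the lung it was 144 CPM (132–158, 470 UMIs) against 0.88 CPM (0.65–1.18, 46 UMIs), a ratio of 163 (121–226). Among all genes at 10 CPM or more, the ratio ranked 59 of 8124 in the aorta and 50 of 8018 in the lung. The collagen-high cells of the lung and the aorta held close to the same level, with a ratio of 1.12 whose interval, 1.00–1.24, reached 1.00. The aorta ratio rests on few endothelial UMIs, and it was 105 with each cell thinned to 5000 UMIs and 200 in cells with fewer than 5000 genes.

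Nearly every collagen-high cell of the deep aorta library had PDGFRB. Of its 141 cells, 137 had a UMI and 122 had 3 or more, with a median of 7 and a highest count of 25. In the lung 216 of 302 had a UMI and 71 had 3 or more. Once cells were thinned to 5000 UMIs, a UMI was left in 45.9% (37.3–54.7) of them in the aorta and in 47.3% (41.4–53.3) in the lung, so the gap at full depth was no longer seen. At 3000 UMIs the shares were 27.0% (19.8–35.3) and 34.3% (29.0–40.05), with intervals that overlap. In endothelial cells the thinned shares were 0.62% and 0.39%.

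PDGFRA (ENSSSCG00000008841), the other receptor gene, on the forward strand of chromosome 8 from 40966568 to 41021440, did not mark the collagen-high cells. In the aorta it was at 4.38 CPM (3.08–6.03, 37 UMIs) in collagen-high and 7.89 CPM (6.98–8.88, 274 UMIs) in endothelial cells, 1.80-fold lower (1.28–2.61) in the collagen-high cells. In the lung 302 collagen-high cells held 1 UMI and 5133 endothelial cells held 48, or 0.31 and 0.92 CPM, with a ratio of 0.33 and an interval of 0.0083–1.95 that gives no order. Of the aorta collagen-high cells 25 had PDGFRA, and all 25 also had PDGFRB, while 112 had PDGFRB alone. The 4 cells without PDGFRB had a median of 4011 UMIs, against 61245 in the others. So few and shallow cells lacked PDGFRB that this overlap was near to given.

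The low level of PDGFRA in aorta ECs came from many cells and was above that in lung ECs. A UMI was found in 178 of 653 aorta ECs, or 27.3% (23.9–30.8), and in 23 of them there were 3 or more, with a highest count of 9. Thinned to 5000 UMIs, 4.02% (2.64–5.83) of aorta and 0.33% (0.19–0.53) of lung ECs had one, and the level was 8.56-fold higher (6.28–11.9) in the aorta. PDGFRA was found in 42.6% of the 61 aorta ECs with PDGFRB and 25.7% of those without, whose median depths were 65858 and 53208.5 UMIs. A subset rich in CCL5, SLPI and CFD was looked at after the cells with PDGFRA had been seen. It was split off among the 582 aorta ECs with 20000 or more UMIs. The subset held less PDGFRA than the others of that depth, at 6.11 against 9.08 CPM, a ratio of 0.67 (0.51–0.88).

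CSPG4 set the classes apart by a wider margin than any other of the 9 genes with UMIs in both classes. Its level in the aorta was 186 CPM (177–195, 1569 UMIs) in collagen-high and 0.29 CPM (0.14–0.53, 10 UMIs) in endothelial cells, a ratio of 645 (350–1347) that ranked 8 of 8124. In the lung it was 187 CPM (172–202, 608 UMIs) against 0.38 CPM (0.23–0.59, 20 UMIs), a ratio of 486 (312–802) that ranked 4 of 8018. No endothelial cell of either library had more than 1 UMI of CSPG4, and with cells thinned to 5000 UMIs the aorta ratio was 206, from 3 endothelial UMIs. Collagen-high cells of both tissues held the same level within the interval of their ratio, 1.01 (0.91–1.11).

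CSPG4 was also the most widely detected of the mural markers. Of the collagen-high cells, 139 of 141 in the aorta and 248 of 302 in the lung had a UMI, and after thinning 58.5% (49.7–66.9) and 62.2% (56.3–67.9) did. It was found together with PDGFRB in 135 of the 141 aorta cells and in 180 of the 302 lung cells. In the lung, CSPG4 was present in 83.3% of cells with PDGFRB and in 79.1% of those without, so cells in which PDGFRB was not seen were mostly cells with CSPG4.

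**Figure D3:**
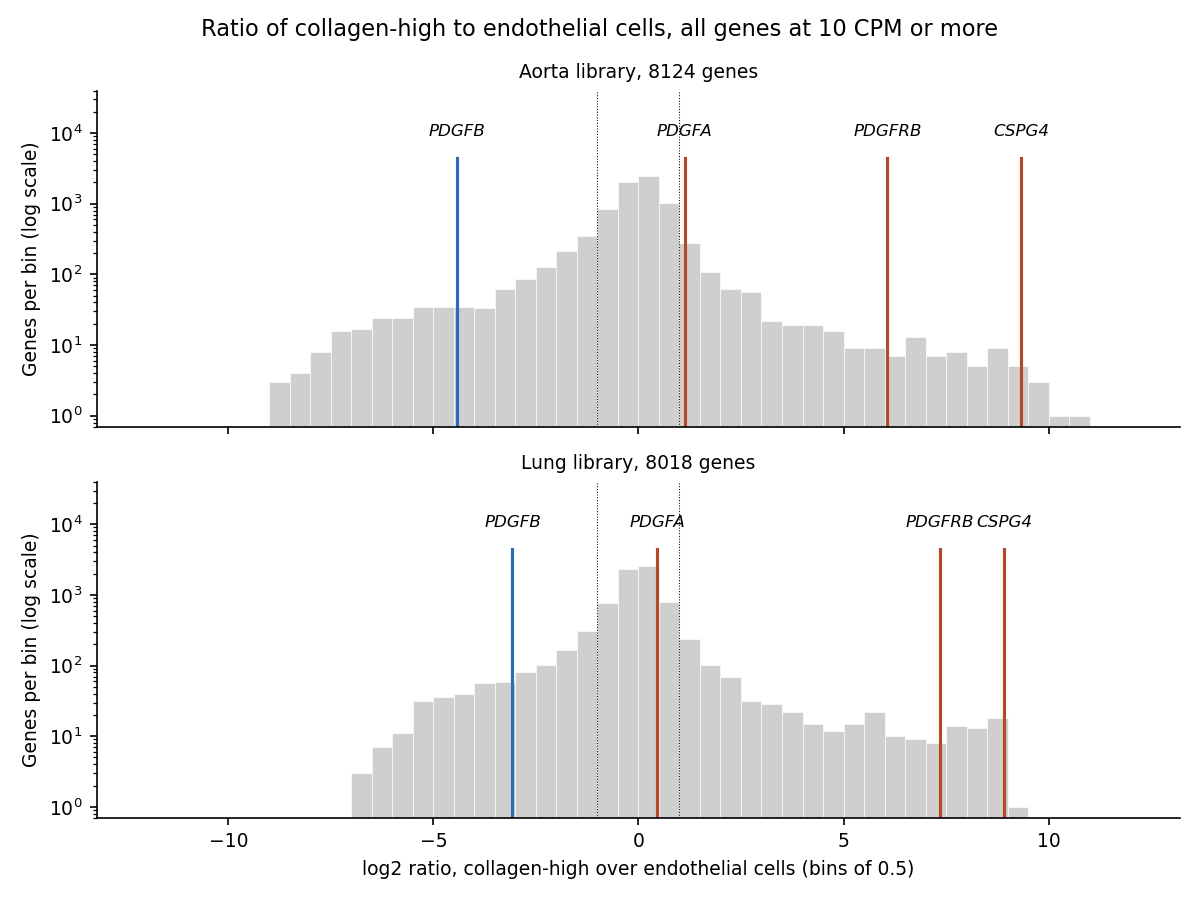
Histogram of the log2 ratio of collagen-high to endothelial cells over all genes at 10 CPM or more in either class, 8124 in the aorta and 8018 in the lung, in bins of 0.5 with a log count axis. Lines mark the 4 of the 9 genes at 10 CPM or more, and the dotted lines are at 2-fold. PDGFRB and CSPG4 lie in the right tail and PDGFB in the left tail of both libraries, and PDGFA lies at 1.12 in the aorta and 0.45 in the lung.

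The traces of PDGFRB and CSPG4 in endothelial cells were set beside those of fibroblast genes. PDGFRB in ECs came to 1.49% of its collagen-high level in the aorta and 0.612% in the lung, and CSPG4 to 0.155% and 0.206%. Over the fibroblast genes on a fixed list, the same share had a median of 2.83% over 14 genes in the aorta and 1.58% over 12 in the lung. The shares ranged from 0 to 125% in the aorta and from 0.221% to 101% in the lung, since the list holds genes such as LOX that ECs had as much of as collagen-high cells. The type VI collagen genes COL6A1, COL6A2 and COL6A3, near the low end, lay at 0.074–0.173% in the aorta and 0.221–0.309% in the lung. PDGFRB lay above these collagens but under the median of the list in both libraries. CSPG4 lay within the range of these collagens in the aorta and just under it in the lung.

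NOTCH3 (ENSSSCG00000025176), on the forward strand of chromosome 2 from 62364507 to 62402348, was higher in collagen-high cells at low levels. In the aorta it was at 6.03 CPM (4.49–7.93, 51 UMIs) in collagen-high and 0.60 CPM (0.37–0.92, 21 UMIs) in endothelial cells, a ratio of 9.98 (5.90–17.5). In the lung it was at 8.29 CPM (5.47–12.1, 27 UMIs) against 2.05 CPM (1.68–2.48, 107 UMIs), a ratio of 4.04 (2.54–6.20). The intervals of the classes did not overlap in either library, yet the gene stayed under 10 CPM and was not counted as higher. Thinned to 5000 UMIs, the aorta cells gave a ratio of 28.8 from 6 UMIs against 1.

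NOTCH3 in ECs was uneven. Its level in lung ECs was 3.40-fold (2.11–5.71) that in aorta ECs, whereas in collagen-high cells the ratio of lung to aorta was 1.37 with an interval of 0.83–2.23. Among aorta ECs with 20000 or more UMIs, the subset rich in CCL5, SLPI and CFD had 13 UMIs in 203 cells. The other 379 had 8, a ratio of 2.87 (1.10–7.99). In the lung the split was not held to 20000 UMIs, a depth that 110 ECs reached. The subset there had 7 UMIs in 93 cells against 97 in 4827, a ratio of 3.09 (1.21–6.61). The limit of 20 UMIs of CCL5, SLPI and CFD was the same in both libraries and not scaled to depth, so the 2 splits are not alike. Both ratios rest on few UMIs, and both lower bounds are close to 1.00.

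KCNJ8 (ENSSSCG00000000573) and ABCC9 (ENSSSCG00000000571), whose products form 1 channel, were seen in collagen-high cells and in no EC. The aorta held 14 KCNJ8 and 11 ABCC9 UMIs in its collagen-high cells, 1.66 and 1.30 CPM, each in 10 of 141 cells, and 0 in endothelial cells, which allows a level of up to 0.086 CPM, so with 0 set to that limit they were at least 19.2-fold and 15.1-fold higher in collagen-high cells. The exact intervals of these ratios began lower, at 13.6 and 10.3. The lung held 2 and 4 UMIs in collagen-high cells and 0 in endothelial cells, which allows a level of up to 0.058 CPM. With 0 set to that limit, ABCC9 was at least 21.3-fold higher in collagen-high cells, with an interval that began at 10.6. The genes are neighbours on chromosome 5 with 22343 bases between them in RefSeq, ABCC9 from 51536531 to 51673583 and KCNJ8 from 51695927 to 51704402.

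RGS5 (ENSSSCG00000037821), on the forward strand of chromosome 4 from 87286953 to 87340816, was practically absent, although it is among the best known pericyte markers. There was 1 UMI in an aorta endothelial cell and 1 in a lung collagen-high cell, and 0 in 141 aorta collagen-high cells, which allows a share of cells with a UMI of up to 2.13%. HIGD1B, another pericyte marker, had 0 UMIs in both classes of both libraries. COX4I2, also a pericyte marker, was not raised in collagen-high cells, at 1.66 against 6.82 CPM in the aorta and 2.15 against 3.44 CPM in the lung. MCAM, an adhesion molecule gene of pericytes and ECs, was at 5.56 against 2.39 CPM in the aorta, a ratio of 2.33 (1.59–3.37), and at 11.7 against 15.9 CPM in the lung, a ratio of 0.73 (0.51–1.01). A gene counted from its 3′ end can be missed where the gene model ends short of the transcript, and this was not tested for RGS5.

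**Figure D4:**
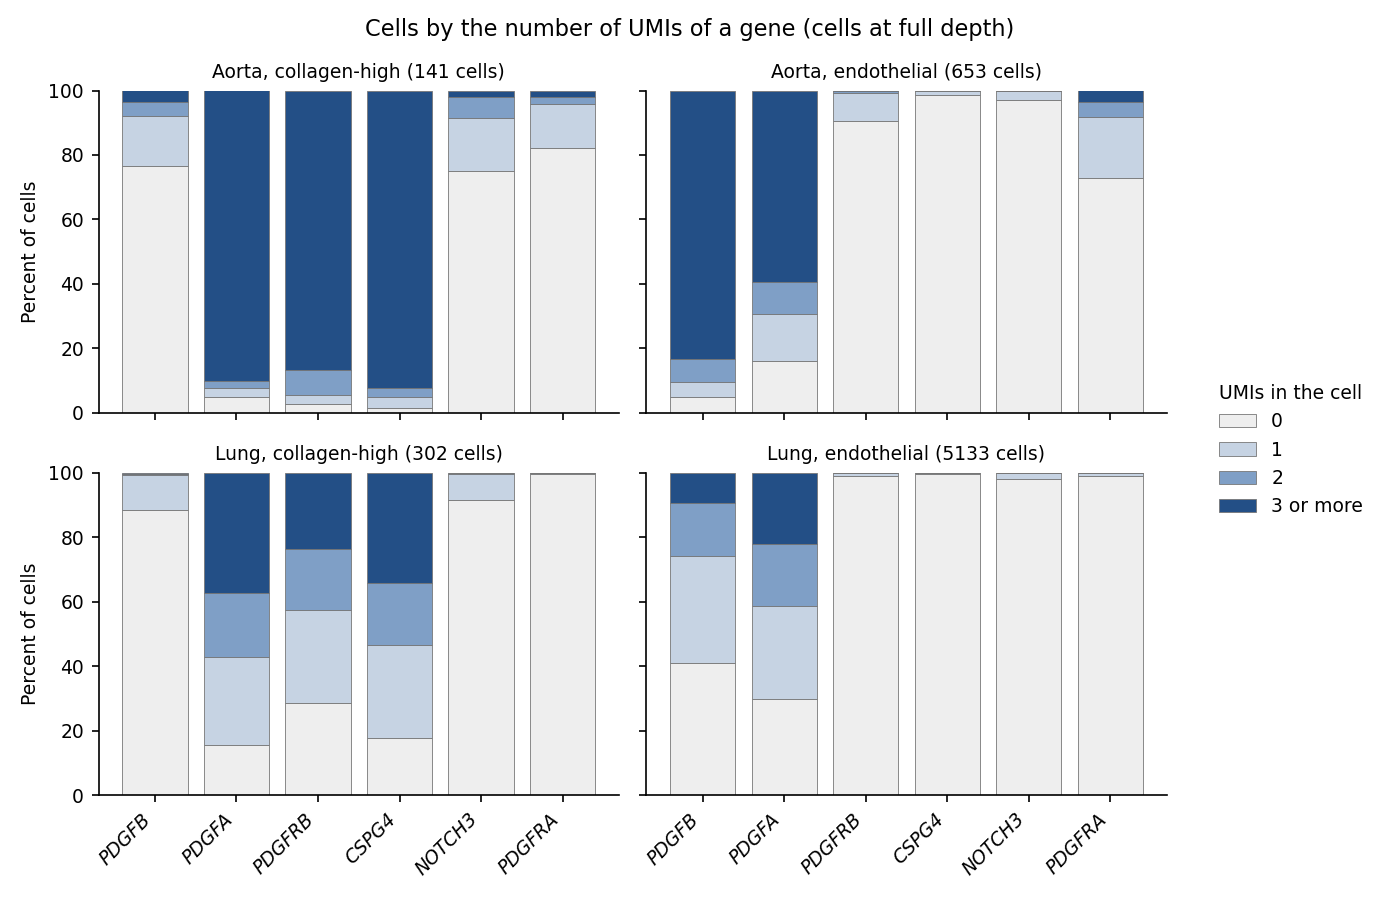
Share of cells with 0, 1, 2 or 3 or more UMIs of 6 of the genes at full depth, in collagen-high (left) and endothelial (right) cells of the aorta (top) and lung (bottom). Aorta cells are deeper, so shares are read within a row. PDGFRB and CSPG4 are in most collagen-high cells and few endothelial cells, PDGFB has the opposite pattern, and PDGFRA reaches 27.3% of aorta endothelial cells.

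The mixed cells, which passed the limits of both classes, held the ligand and the receptor genes when summed, but many single cells did not. In the aorta they had PDGFRB at 29.2 CPM, CSPG4 at 22.1 CPM and PDGFB at 120 CPM, and in the lung at 75.5, 87.7 and 77.7 CPM. PDGFRB and PDGFB were both detected in 5 of 18 aorta and 19 of 41 lung mixed cells. A UMI of PDGFRB was found in 8 of the 18 aorta cells and one of CSPG4 in 5, against 27 and 34 of the 41 in the lung. The levels of PDGFRB and CSPG4 lay between those of the 2 classes. Mixed cells were deeper than both, with a median of 87191 UMIs in the aorta and 19383 in the lung, and whether they are pairs of cells was not tested.

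Few cells without endothelial genes lay near the collagen limit. With the limit lowered to 10 UMIs the endothelial class of the aorta held 609 rather than 653 cells. Just inside it, 5 aorta cells with 20 to 39 collagen UMIs had 3 PDGFRB and 3 CSPG4 UMIs, and 9 lung cells had 5 of each. Just outside it, 3 aorta and 5 lung cells with 10 to 19 collagen UMIs and no endothelial class had 0 PDGFRB UMIs in both libraries, with 1 and 2 CSPG4 UMIs. These cells were shallow, with median depths of 1664 to 4876 UMIs.

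Within the collagen-high cells, the receptor and CSPG4 varied with WT1, a transcription factor gene of mesothelial cells, in the lung. The 30 lung cells with 2 or more WT1 UMIs had PDGFRB at 71.8 CPM against 154 CPM in the other 272, a ratio of 0.47 (0.30–0.69), and CSPG4 at 122 against 195 CPM, a ratio of 0.63 (0.45–0.85). PDGFA was at 168 against 216 CPM, a ratio of 0.78 whose interval, 0.59–1.01, includes equal levels. The aorta had 2 such cells, so the split was not read there. WT1 was the 1 mesothelial marker of 4 among the genes counted.

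Most collagen-high cells held contractile genes as well. There were 131 of 141 in the aorta and 269 of 302 in the lung with 10 or more UMIs of ACTA2 and TAGLN, the genes of smooth muscle actin and of transgelin. ACTA2 alone was found in 134 of the aorta and 240 of the lung cells. TAGLN was also found in ECs, at 238 CPM in the aorta and 958 CPM in the lung. PDGFRB was at 129 CPM in these aorta cells and 186 CPM in the other 10, and at 144 and 153 CPM in the lung, with ratios whose intervals include 1.00. CSPG4 likewise gave 186 and 198 CPM in the aorta and 190 and 139 CPM in the lung. The limit of 10 UMIs was not scaled to depth, and the cells under it were shallower on average in both libraries.

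The aorta also held 50 cells with smooth muscle genes that lay under the limits for collagen and for endothelial genes, and no UMI of most of the mural markers was found in them. They held 25 COL1A1 UMIs in 15 cells and 6 PECAM1 UMIs in 5 cells. They had 0 UMIs of PDGFRB, CSPG4, NOTCH3, KCNJ8, ABCC9 and RGS5 in 272595 UMIs, which allows up to 11.0 CPM for each. PDGFA was at 110 CPM (74.3–157, 30 UMIs) and PDGFB had 3 UMIs. For PDGFRB and CSPG4 the limit lay below the collagen-high levels of 129 and 186 CPM. These cells were shallow, with a median of 4424.5 UMIs, and 41 of the 50 had under 1% mitochondrial UMIs, against 0 of 141 collagen-high cells, and the part of this in the result was not tested.

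Other mural genes, 34 on a fixed list with 32 found, were mostly higher in collagen-high cells where they reached 10 CPM. Of 14 at 10 CPM or more in the aorta, 10 were higher in collagen-high and 1 in endothelial cells, with a median log2 ratio of 2.78, and in the lung 13 and 0 of 17, with 2.27. Over all genes, 8.09% of those in the aorta and 7.82% of those in the lung were higher in collagen-high cells. ITGA8, an integrin subunit gene of smooth muscle cells and fibroblasts, was at 87.4 CPM against 0.086 CPM in the aorta and 79.9 against 0.17 CPM in the lung. ACTA2 was 571-fold and 270-fold higher. DES, the desmin gene, was at 28.0 CPM in lung collagen-high cells against 0.058 CPM in ECs, but had 2 UMIs in those of the aorta. MYH11, the heavy chain of smooth muscle myosin, had 5 UMIs in the aorta and 0 in the lung collagen-high cells, against 67 and 76 in ECs, with a ratio of 0.31 (0.096–0.75) in the aorta. GUCY1B1, a subunit of the nitric oxide receptor, went the other way in the aorta, 2.18-fold higher in ECs.

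Most fibroblast genes on the fixed list were higher in the same cells. Of 16 at 10 CPM or more in the aorta, 10 were higher in collagen-high and 2 in endothelial cells, and of 13 in the lung 11 and 1 were, with median log2 ratios of 3.52 and 5.95. Over all genes, 8.09% and 7.82% were higher in collagen-high cells. COL6A1 was 577-fold higher in the aorta and 324-fold in the lung. COL3A1 was 429-fold higher in the lung but 5.13-fold in the aorta, where ECs held 80.9 CPM. DCN and LUM, proteoglycan genes of most tissue fibroblasts, were low in collagen-high cells, at 5.09 and 11.9 CPM in the aorta and 3.07 and 0.92 CPM in the lung. DCN was 3.63-fold higher in aorta ECs, at 18.5 CPM. FBLN1 was 50.7-fold and 33.9-fold higher in ECs. The collagen-high cells thus held genes of both the mural and the fibroblast list, and no cell type name was given to them.

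Other genes of the PDGF pathway were found on both sides. Of 22 at 10 CPM or more, 5 were higher in collagen-high and 5 in endothelial cells of the aorta, and 5 and 4 in those of the lung, with median log2 ratios of -0.13 and 0.12. Over all genes the shares were 8.09% and 13.2% in the aorta and 7.82% and 11.2% in the lung. Those higher in collagen-high cells of both libraries included LRP1, a coreceptor that binds PDGFRβ, at 32.3 against 3.28 CPM in the aorta and 35.3 against 2.15 CPM in the lung. NRP1, a coreceptor of several growth factors, was 3.95-fold and 6.36-fold higher there. PLAU, a protease gene, was 3.79-fold higher in the aorta and 2.65-fold in the lung. SPARC, whose matrix protein binds PDGF-BB, was 2.75-fold and 4.18-fold higher. PLAT, whose protease activates PDGF-CC, was 4.73-fold and 2.44-fold higher in ECs. Genes that carry the signal inside the cell differed among themselves. The adaptor gene GRB2 and the phosphatase gene PTPN11 were within 2-fold in the aorta, at 120 against 144 CPM and 190 against 189 CPM. PIK3R1, a regulatory subunit gene of PI3 kinase, was 3.09-fold and 2.12-fold higher in collagen-high cells, and STAT3, a transcription factor gene, was 2.01-fold and 2.34-fold higher in ECs.

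Notch genes, listed because NOTCH3 is one of the 9, were likewise divided. Of 8 at 10 CPM or more, 0 were higher in collagen-high and 2 in endothelial cells of the aorta, and 3 and 2 in those of the lung, beside the same shares over all genes of 8.09% and 13.2% and of 7.82% and 11.2%. JAG2, a ligand gene, and HEY1, a target gene, were higher in ECs of both libraries, JAG2 26.7-fold in the aorta and 8.31-fold in the lung. JAG1, the ligand gene most often linked with NOTCH3 in smooth muscle cells, was at 178 against 92.8 CPM in the aorta, a ratio of 1.92, and at 176 against 46.5 CPM in the lung, a ratio of 3.79. NOTCH2, a receptor gene, was 1.98-fold higher in aorta and 4.27-fold higher in lung collagen-high cells, and the target gene HEY2 1.53-fold and 2.18-fold. HEYL, a target gene of NOTCH3, had 0 UMIs in both aorta classes and 1 in those of the lung.

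Correlations from cell to cell were computed for 6 of the 9 genes, leaving out KCNJ8, ABCC9 and RGS5. Genes were ordered by the lower of their correlations in the 2 libraries, and no gene had more than 0.22 by that measure. Over 141 aorta and 302 lung collagen-high cells, the genes most like PDGFRB were COL4A2, PDIA4 and LTC4S, with correlations of 0.21–0.23 in both libraries. For CSPG4 they included VCAN, at 0.20 and 0.28, and GSK3B, at 0.23 and 0.20. For PDGFB in ECs the highest was THBS1, at 0.22 and 0.10, and for PDGFA it was VCAM1, at 0.17 and 0.16. Cells of a library share its depth and free RNA, and correlations of this size in sparse counts are given as a description.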

How the data were processed

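The authors deposited counts of UMIs per gene and cell from 10x Genomics 3′ libraries, made with Cell Ranger 3.0.2 on Sscrofa11.1 and not normalized. UMIs were counted for 22804 genes, of which 14983 had a symbol in the deposited counts and 1051 more were named from a table of gene names. Cells were kept if they had over 200 detected genes and if 12 mitochondrial genes held under 30% of their UMIs. The upper limit of 5000 genes in the methods was an alternative, since it leaves 246 of 955 aorta cells. The libraries held 46080859 UMIs in 1185 barcodes (aorta) and 57213236 in 5946 (lung), and 5 barcode sequences occurred in both. UMIs were summed per class and given as CPM with exact Poisson 95% intervals, ratios with exact conditional intervals and shares of cells with Clopper-Pearson intervals, and 3 counts over the class stood as the limit for 0 counts. Smooth muscle gene cells held 10 or more UMIs of ACTA2 and TAGLN. No doublet caller was run, and mixed cells were set apart. Because only 3′ ends are captured, a transcript that ends beyond its gene model is not counted. The named genes were the 9 genes, the classing genes, the 3 highest and 3 lowest of each list in each library, the 3 most alike in both libraries among genes in at least 25% of the cells, and genes needed to check a class. PDGFC, HEYL, COX4I2, HIGD1B, MCAM, LOX, GRB2, PTPN11, PIK3R1 and STAT3 were added after their values were seen. The genes, lists and subsets were chosen with earlier results of these data known. Python 3.11.15, numpy 2.4.6, pandas 2.3.3, scipy 1.17.1 and matplotlib 3.10.9 were used, and the counting was tested on simulated data.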

Additional observations from a re-analysis of the deposited data

How the results depend on the processing

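Ratios were recomputed for 8 of the 9 genes in aorta and for 7 in lung cells under 13 alternatives at most for each gene and library, and none changed direction. RGS5 in both libraries and KCNJ8 in the lung had too few UMIs for a ratio. Of 186 ratios, 176 moved by less than their counting interval. With the methods' limit of fewer than 5000 genes, 1252 of 8695 genes were higher in collagen-high cells of the aorta, which then rest on 18 collagen-high and 85 endothelial cells. Without the minimum of 10 CPM, 6 of the 9 genes reached a 2-fold excess in aorta collagen-high cells, and 4 did so in lung ones. Lung endothelial cells had such an excess of 2, PDGFB and PDGFRA, and the interval of PDGFRA (0.0083–1.95) gives no order. By the same 2-fold limit, 1410 (aorta) and 1605 (lung) of all genes were higher in collagen-high cells. For endothelial cells these numbers were 2317 and 1615. Among single ratios in the aorta, PDGFRB lay between 59.1 and 200 (fewer than 5000 genes, 1 endothelial UMI), and CSPG4 between 206 (each cell thinned to 5000 UMIs, 3 endothelial UMIs) and 668. With mixed cells counted as collagen-high, the excess of PDGFB in endothelial cells was 5.81-fold in the aorta, against 21.4-fold without them, and 3.78-fold in the lung. Of 36 shares of cells with a UMI after thinning, 18 moved beyond their interval at 3000 rather than 5000 UMIs. Thinning to 5000 UMIs, classes by 500 CPM of endothelial genes, the subset by CCL5, SLPI and CFD and the bands of collagen UMIs were chosen after seeing the data. No paired analysis was possible because each tissue had 1 library and nothing was tested. A low count in the lung limits KCNJ8, ABCC9, RGS5 and PDGFRA, which had 1 to 4 UMIs in its collagen-high cells.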
